A study of Mus musculus with 79 samples.

Results

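The 14 chow diet (CD) arrays with the most slow troponin transcript were compared with the 14 CD arrays with the least, out of 42 CD arrays and 79 arrays in all. The groups were chosen by measured values. The score of an array was the mean of Tnni1, Tnnt1 and Tnnc1, which encode the slow isoforms of troponin I, T and C, and the 14 arrays between the extremes were left out of the comparison. Because these 3 genes set the groups, their own differences on the CD arrays are a description, and every other gene was tested for whether it moved with them over the same arrays. The strains so chosen were then examined on their arrays from the high fat diet (HFD), which the choice had not used. As a check, the 12 highest and 12 lowest of the 37 HFD arrays by their own score were compared in the same way.

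The arrays measured quadriceps RNA of male mice of the BXD family, inbred strains derived from C57BL/6J and DBA/2J, and of both parents. Each array held RNA pooled from about 5 animals of 1 strain on 1 diet, killed at 29 weeks after an overnight fast, with HFD begun at 8 weeks. Each strain therefore had a single array on a diet, so variation between animals within a strain cannot be told apart from variation between strains. Values are scores on the deposited scale, taken as logarithmic with no stated base and called units here, and all arrays share a mean of 8.0 with an SD of 2.0. The high CD group held BXD44, BXD50, BXD51, BXD73, BXD83, BXD84, BXD85, BXD90, BXD97, BXD98, BXD100, BXD101, BXD103 and DBA/2J. The low CD group held BXD48, BXD49, BXD61, BXD62, BXD63, BXD64, BXD66, BXD68, BXD70, BXD75, BXD81, BXD87, BXD95 and C57BL/6J. RNA was extracted and hybridised at 2 times, called batches here, and each CD group had 5 arrays of batch 1 and 9 of batch 2.

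Skeletal muscle mixes slow fibres, which contract slowly and resist fatigue, with fast fibres, and each kind uses its own isoforms of myosin, troponin and the calcium pump. Slow fibres hold more mitochondria and myoglobin and burn more fatty acid, while fast glycolytic fibres rely on glycogen and glucose. The quadriceps of the mouse is mainly a fast muscle, with slow fibres concentrated in its deep part. In RNA from a whole muscle, fewer slow fibres and less slow transcript per fibre cannot be told apart.

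The sequence before the start of each score gene and of Myh7, the slow myosin heavy chain gene that followed them most closely by p-value, is shown because these genes moved together. Each line gives the 250 bases before the annotated start, 5′ to 3′ on the strand of the gene, from RefSeq on build GRCm38.p6. Tnni1 lies at chr1:135799171-135799420 on the plus strand, Tnnt1 at chr7:4515976-4516225 on the minus strand, Tnnc1 at chr14:31208062-31208311 on the plus strand and Myh7 at chr14:54994627-54994876 on the minus strand. For Tnni1 and Myh7, which have 2 listed starts, the first in the table is shown. Capitals mark MCAT motifs (CATTCC) and E-boxes (CANNTG) on either strand.
Tnni1: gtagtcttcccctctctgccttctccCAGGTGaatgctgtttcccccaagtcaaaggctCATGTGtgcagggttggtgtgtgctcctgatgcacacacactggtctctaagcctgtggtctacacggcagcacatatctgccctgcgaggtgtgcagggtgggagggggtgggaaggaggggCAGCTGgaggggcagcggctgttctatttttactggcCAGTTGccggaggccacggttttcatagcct
Tnnt1: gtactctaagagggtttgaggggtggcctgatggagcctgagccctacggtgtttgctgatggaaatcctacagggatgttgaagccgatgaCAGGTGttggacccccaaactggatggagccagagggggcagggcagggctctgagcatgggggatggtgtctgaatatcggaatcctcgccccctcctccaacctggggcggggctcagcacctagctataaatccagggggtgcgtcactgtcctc
Tnnc1: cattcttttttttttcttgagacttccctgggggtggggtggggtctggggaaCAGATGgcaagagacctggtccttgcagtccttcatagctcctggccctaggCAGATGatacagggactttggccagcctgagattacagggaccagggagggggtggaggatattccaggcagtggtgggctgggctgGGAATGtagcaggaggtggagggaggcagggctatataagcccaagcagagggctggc
Myh7: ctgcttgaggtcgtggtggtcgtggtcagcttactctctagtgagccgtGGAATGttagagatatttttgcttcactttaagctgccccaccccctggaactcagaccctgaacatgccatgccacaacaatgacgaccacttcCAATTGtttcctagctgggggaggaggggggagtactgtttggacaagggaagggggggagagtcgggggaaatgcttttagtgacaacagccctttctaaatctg

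E-boxes, the sites bound by myogenic factors such as MyoD, are common letters, present in 66.2% of all 32851 windows of this length. All 14 of the 15 slow genes that had a window, the score genes and the slow contractile list described below, held at least 1. MCAT motifs, bound by TEAD factors, were in 12.6% of all windows and in 3 of the 14, namely Tnnc1, Myh7 and Myl3. The longer motif of the MEF2 factors was in 2.92% of all windows and in 2 of the 14, Casq2 and Myoz2. These matches describe letters in 1 window and were not tested as binding sites.

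The score spread widely among strains on CD. It ran from 8.10 to 10.74 units over the 42 CD arrays, with a median of 9.15. In the high group the lowest, median and highest scores were 9.50, 10.22 and 10.74, and in the low group 8.10, 8.38 and 8.63. The limits between groups fell where neighbouring strains were close. The last array inside the high group (BXD101) was at 9.50 and the next, BXD71, at 9.46, and the last inside the low group (BXD95) was at 8.63 and the next, BXD96, at 8.65. The widest gap between neighbours lay within the high group, where 9 arrays were at 10.09 or above and the other 5 at 9.60 or below. The 3 score genes moved together over the 42 CD arrays, with r of 0.93 to 0.97 for each pair, as a description.

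Each score gene gave much the same picture. Tnnc1, the calcium-binding troponin of slow and cardiac muscle, ran from 9.80 to 11.30 with a median of 10.46 in the high group and from 8.06 to 8.88 with a median of 8.45 in the low group. Tnni1 had medians of 10.36 and 8.37, and Tnnt1 of 9.61 and 8.22. In all 3 genes the groups were separate. As a tissue check, Acta1, the skeletal muscle actin, averaged 15.16 units in both groups. Markers of other organs lay far below Acta1, near the array medians of 7.78 to 7.92 units. The mean of 1097 olfactory receptor genes was 6.09. Nppa of the heart atrium averaged 7.72 and 7.71 and Ins2 of the pancreas 7.44 and 7.36 in the high and low group. Over the 5 such genes the mean of an array ran from 7.53 to 8.60 with a median of 7.67 in the high group. In the low group it ran from 7.38 to 8.55 with a median of 7.53. Of these 5, Myh6 was called higher in the high group and is described below.

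**Figure D1:**
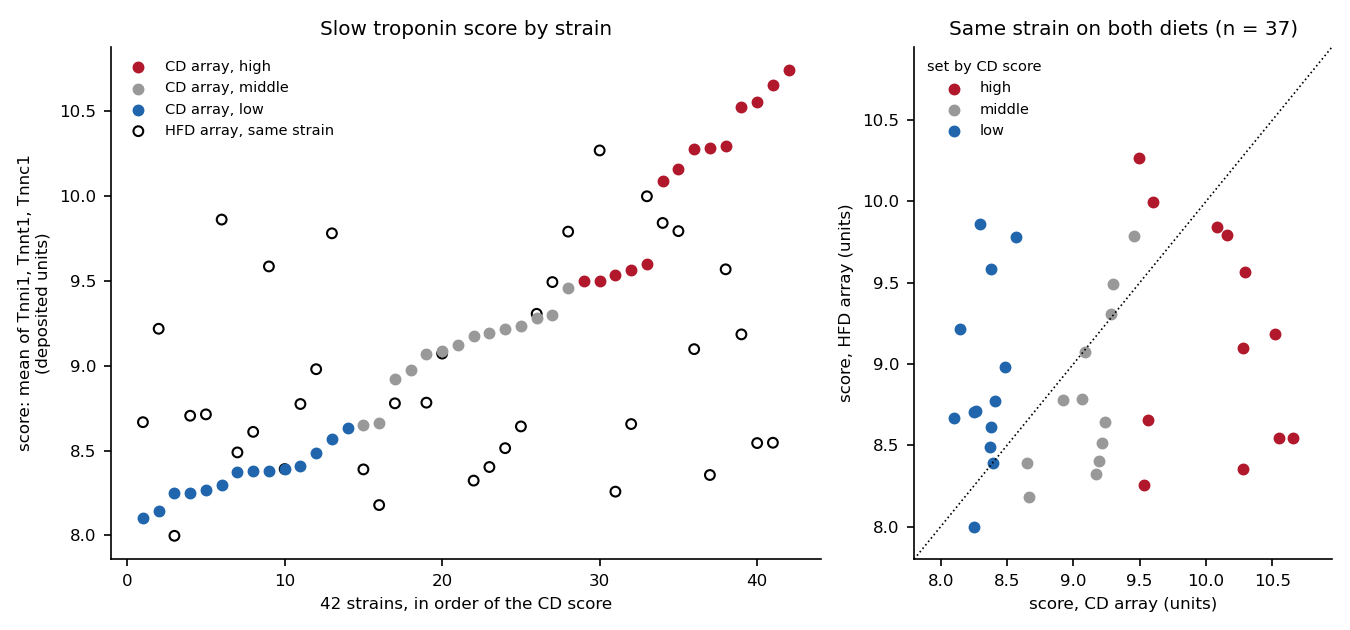
Left, the score of each of the 42 strains in order of its CD score (filled points, coloured by group) with the HFD array of the same strain (open points, 37 strains). Right, the same scores as a scatter of HFD against CD in deposited units, where the dotted line marks equal scores and strains far to the right lie both high and low on the HFD axis.

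On CD, 9 of 12 slow contractile genes and 9 of 17 genes of fatty acid use were higher in strains with high slow troponin. So was the oxidative fast myosin Myh2. The lists were chosen with earlier results of these data known, so their counts are not independent of these data. Among 22332 named genes other than the score genes, 195 differed between the groups at an adjusted p below 0.05 (limma, with batch as a term), which is 0.873% of genes. Of these, 127 were higher in the high group, 0.569% of genes, and 68 were lower, 0.304%. At an unadjusted p below 0.05 there were 2634 genes, or 11.8%. The 3 largest differences, of nearly equal size, were in slow myosin subunits. The groups did not overlap in 4 genes, 0.0179% of those tested, and these were Myh7, Myl2, Atp2a2 and Myh6.

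The slow contractile list had 12 genes, of which 9 were higher in the high group and 0 lower. Of all genes, 0.569% were called higher. The median difference of the 12 was 0.68 units, against 0.003 over all genes tested. Myh7, the slow myosin heavy chain shared with the heart ventricle, was at 9.66, 10.44 and 10.91 units (lowest, median, highest) in the high group, at 8.09, 9.22 and 9.78 in the 14 middle arrays and at 8.01, 8.42 and 8.76 in the low group. Every high array was above every low array. The difference was 1.94 ± 0.12 units (SE, n = 14 against 14) with an adjusted p of 1.44e-12.

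Myl2, the slow regulatory light chain, ran from 9.63 to 11.09 with a median of 10.47 in the high group and from 8.04 to 9.08 with a median of 8.36 in the low group. It differed by 1.96 ± 0.14 units (SE, adjusted p of 9.39e-11). Myl3, the slow essential light chain, spread more, from 9.66 to 11.76 with a median of 10.68 against 7.99 to 9.89 with a median of 8.69. Its difference was 1.93 ± 0.21 units (SE, adjusted p of 1.09e-06), and the ranges met only at their ends. Atp2a2, the calcium pump of slow and cardiac muscle, was at 11.40 to 12.78 with a median of 12.20 against 10.33 to 11.14 with a median of 10.56. The pump differed by 1.503 ± 0.12 units (SE, adjusted p of 9.89e-10) and its groups were separate.

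Smaller differences that passed the test were found in regulatory and structural genes of slow fibres. Myoz2, a Z-disc protein that binds calcineurin, was higher by 1.08 ± 0.17 units (SE), and Ankrd2, a stretch-responsive nuclear protein, by 0.70 ± 0.17. Casq2, the cardiac and slow calcium-storage protein, was higher by 0.65 ± 0.15, and Pln, the inhibitor of the slow calcium pump, by 0.40 ± 0.10. Of 28 fits that each left out 1 array, Ankrd2 was called in 22, Casq2 in 25 and Pln in 10. The slow tropomyosin gene Tpm3 was higher by 0.30 ± 0.05 units (SE, adjusted p of 0.00339). Ankrd2, Casq2, Pln and Tpm3 were called in neither batch alone, and Myoz2 in batch 2 only. With the t-test that the paper's methods name, or without the parental strains, Ankrd2, Casq2 and Pln were not called. Csrp3, a muscle LIM protein, differed by 0.65 ± 0.17 units but missed the threshold (adjusted p of 0.053), as did Myh7b by 0.14 ± 0.04 (0.0785). Myl6b was at 7.95 units in the high and 7.94 in the low group. Myh6, the atrial myosin gene that neighbours Myh7 and is close to it in sequence, differed by 0.43 ± 0.05 units (SE, adjusted p of 1.23e-06), and its probes could also read Myh7 transcript, which was not tested. The 4 largest differences of the list stood within each batch. Myh7 differed by 1.65 units in batch 1 and 2.11 in batch 2, Myl2 by 1.53 and 2.20, Myl3 by 1.65 and 2.08, and Atp2a2 by 1.10 and 1.73, and these 4 were also the genes called in batch 1 alone.

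**Figure D2:**
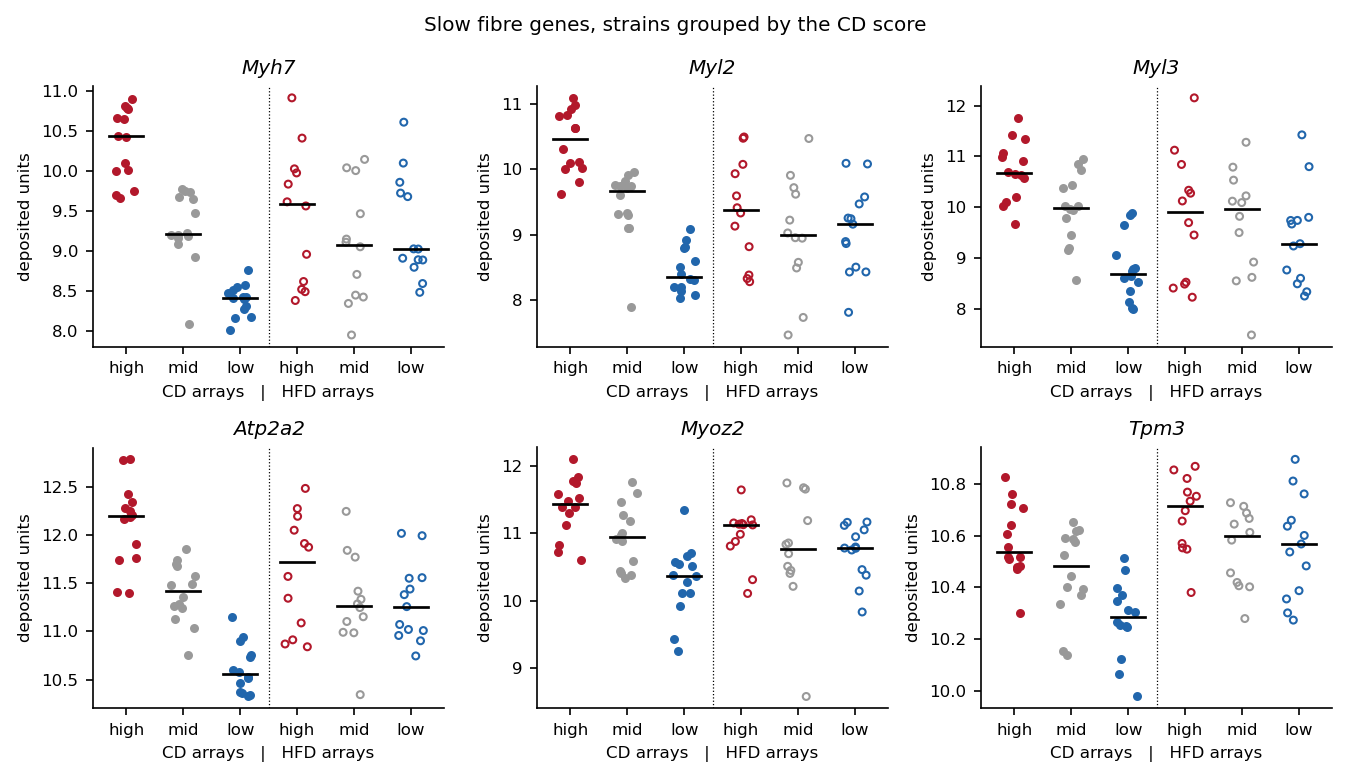
Values of 6 slow fibre genes in deposited units, each point 1 array and each bar a median, with strains grouped as high, middle or low by the CD score. On the CD arrays (filled) Myh7, Myl2 and Atp2a2 are separate between high and low, while on the HFD arrays of the same strains (open) all 6 genes overlap.

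Of 15 fast contractile genes, 2 passed the test, beside 0.569% of all genes called higher, and both were higher in the high group. Myh2, the myosin of fast oxidative type IIa fibres, ran from 13.30 to 13.98 with a median of 13.72 in the high group and from 12.18 to 13.59 with a median of 13.12 in the low group. That is a difference of 0.61 ± 0.11 units (SE, adjusted p of 0.00218). Myh1, the type IIx myosin, was higher by 0.25 ± 0.05 (adjusted p of 0.00947). Neither was called in 1 batch alone, where Myh2 differed by 0.49 and 0.68 units and Myh1 by 0.18 and 0.28. Myh4, the type IIb myosin of the most glycolytic fibres, differed by -0.02 units, with a 95% interval of -0.08 to 0.04. The fast counterparts of the score genes were slightly lower without passing the test. Tnnc2 differed by -0.13 units (interval -0.25 to -0.01, adjusted p of 0.351), Tnni2 by -0.09 (-0.18 to 0.00) and Tnnt3 by -0.04 (-0.11 to 0.03). The calcium pump of fast fibres, Atp2a1, differed by -0.01 units (-0.07 to 0.06). Over the list the median was -0.07 units and 12 of 15 differences were negative. These genes lay near the top of the scale, with a mean of 14.27 units over the list in the high group.

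Of 17 genes of fatty acid use, 9 passed the test as higher, 8 did not pass and 0 were lower. Of all genes, 0.569% were called higher. All 17 differences were positive, beside 51.3% of all genes, with a median of 0.28 units. Fabp3, the muscle fatty acid binding protein, showed the largest difference of the list at 0.46 ± 0.09 units (SE, adjusted p of 0.00649). Lpl, the lipase that releases fatty acids from lipoproteins at the vessel wall, ran from 12.59 to 13.19 with a median of 12.97 in the high group and from 12.21 to 12.88 with a median of 12.52 in the low group. The difference was 0.42 ± 0.06 units (adjusted p of 0.000247). The fatty acid transporter Cd36 was higher by 0.33 ± 0.07 and the activating enzyme Acsl1 by 0.31 ± 0.06. Both carnitine palmitoyltransferases that carry fatty acids into mitochondria were called, Cpt2 with 0.30 ± 0.07 and Cpt1b with 0.18 ± 0.04. So were the oxidation enzymes Hadhb (0.31 ± 0.07), Hadha (0.28 ± 0.06) and Acadm (0.24 ± 0.05). Pdk4, which turns off pyruvate oxidation in fasting, differed by 0.16 ± 0.09 and Ucp3 by 0.09 ± 0.15, and neither passed. Of the 9 calls, 0 were made in batch 1 alone and 1, Lpl, in batch 2 alone, with list medians of 0.25 and 0.27 units, and 5 were made without the parental strains. Cpt1b and Cpt2 were called in 19 and 21 of 28 fits that left out 1 array.

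Among 21 genes of oxidative metabolism, 5 were higher and 0 lower, beside 0.569% of all genes called higher, with a median of 0.11 units. In batch 1 alone 0 of the list were called and in batch 2 alone 1, Ldhb, with list medians of 0.10 and 0.11 units. Ldhb, the lactate dehydrogenase subunit of oxidative tissue, ran from 11.25 to 12.41 with a median of 11.79 in the high group and from 10.27 to 11.60 with a median of 10.93 in the low group (difference 0.82 ± 0.13, adjusted p of 0.000939). Idh2, the mitochondrial isocitrate dehydrogenase that makes NADPH, was higher by 0.54 ± 0.09, Mb, which encodes myoglobin, by 0.29 ± 0.05, the mitochondrial creatine kinase Ckmt2 by 0.25 ± 0.05 and the complex III subunit Uqcrc1 by 0.18 ± 0.04 (called in 25 of 28 fits that left out 1 array). The citrate synthase gene Cs differed by 0.11 ± 0.04 units and the ATP synthase subunit Atp5b by 0.11 ± 0.03, and missed the threshold with adjusted p of 0.163 and 0.0502. Outside the lists, the ketone enzyme Bdh1 was among the 10 largest called differences, at 0.79 ± 0.13 units (adjusted p of 0.00096).

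Glycolysis and glycogen genes showed 1 call among 18, and it was lower, beside 0.304% of all genes called lower. This call was made in neither batch alone. Phka1, the muscle regulatory subunit of phosphorylase kinase, which starts glycogen breakdown, fell by 0.22 units (SE 0.04, adjusted p of 0.00777). Its lowest, median and highest values were 13.07, 13.36 and 13.52 in the high group and 13.41, 13.57 and 13.73 in the low group. The median difference of the list was -0.06 units, and 14 of 18 differences were negative. Gpd1, a cytosolic glycerol phosphate dehydrogenase, differed by -0.17 ± 0.06 and Pgk1 by -0.13 ± 0.04, neither past the threshold. Pfkm, Aldoa, Tpi1 and Gapdh differed by 0.015, 0.013, 0.003 and -0.003 units.

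Of 25 regulators linked to fibre type, 4 were higher and 1 lower, beside 0.569% and 0.304% of all genes. In batch 1 alone 0 of the list were called, and in batch 2 alone 3, Vgll2, Ppara and Esrra. Esrrg, Esrrb and Ppp3ca were called in neither batch alone. Vgll2, a cofactor of TEAD factors known for its part in slow fibre gene programmes, ran from 10.38 to 10.91 with a median of 10.74 in the high group and from 9.71 to 10.70 with a median of 10.17 in the low group. It had the largest difference of the list together with Esrrg, 0.48 ± 0.07 units (SE, adjusted p of 0.000215). The nuclear receptors Esrrg, Ppara and Esrrb, which drive oxidative and fatty acid genes, were higher by 0.48 ± 0.09, 0.39 ± 0.07 and 0.32 ± 0.06 (adjusted p of 0.00275, 0.00633 and 0.00315). Esrra differed by 0.19 ± 0.05 and missed the threshold (0.0705). Ppp3ca, a catalytic subunit of calcineurin, the phosphatase known to promote the slow programme, fell by 0.23 units (SE 0.04, adjusted p of 0.0073). Ppargc1a, the coactivator known for mitochondrial growth, differed by -0.05 ± 0.08 with a 95% interval of -0.21 to 0.12, and Sox6, a repressor of slow genes, by -0.12 ± 0.04 (adjusted p of 0.169). Tead1 and Nfatc1 differed by 0.03 and 0.02 units.

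**Figure D3:**
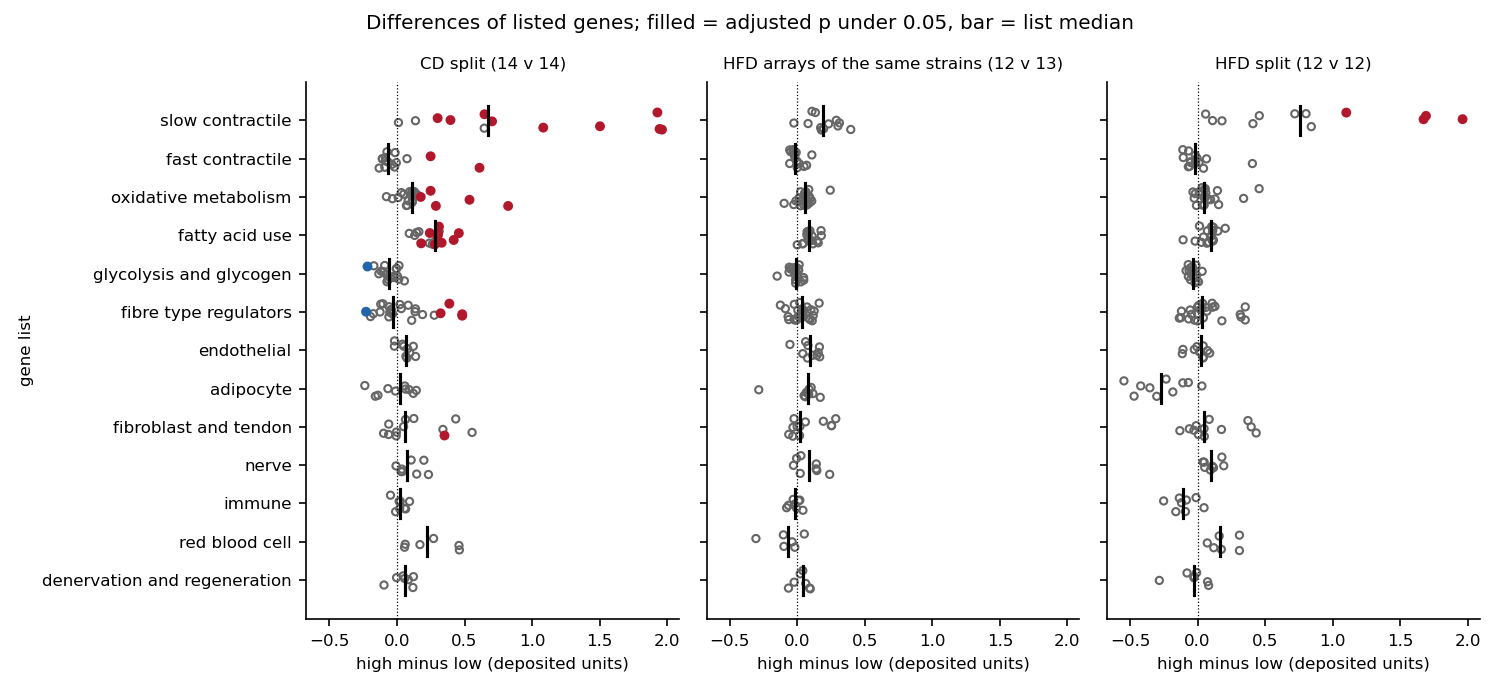
Difference between high and low strains (deposited units) for every gene of 13 lists, with open points not called, filled red points called higher, filled blue points called lower and a bar at each list's median. The panels show the CD split (14 against 14), the HFD arrays of the same strains (12 against 13, with 0 calls) and the HFD split (12 against 12, with 4 calls).

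Markers of other cells that a whole muscle holds were examined beside these lists. Of 12 fibroblast and tendon genes, 1 was called, beside 0.873% of all genes. Comp, a cartilage and tendon matrix protein, was higher in the high group by 0.35 ± 0.08 units (SE, adjusted p of 0.0377), with 0.14 within batch 1 and 0.46 within batch 2, and was called in 14 of 28 fits that left out 1 array. The tendon genes Fmod, Thbs4 and Tnmd differed by 0.56 ± 0.17, 0.44 ± 0.13 and 0.34 ± 0.13 without passing, whereas Scx, the transcription factor that defines tendon cells, differed by -0.004 and the fibroblast genes Col1a1, Dcn and Pdgfra by 0.05, -0.01 and -0.06. Without BXD63, a low strain, 4 of the 12 were called higher, namely Comp, Fmod, Thbs4 and Tnmd. The mean of the 12 genes ran from 9.66 to 10.10 in the high and from 9.52 to 10.18 in the low group. The part of tendon in the differences of other genes was not tested. Chad, which encodes the matrix protein chondroadherin of cartilage and tendon, was the sixth largest called difference at 1.03 ± 0.20 units (adjusted p of 0.00846), with a median of 10.29 against 9.12.

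Among 10 endothelial, 10 adipocyte, 8 nerve, 8 immune and 6 red blood cell genes, 0 were called by limma, and at an unadjusted p below 0.05 there were 0, 1, 3, 0 and 3, beside 11.8% of all genes. All 6 red blood cell differences were positive, with a median of 0.22 units, and 7 of 8 nerve differences, with a median of 0.07. The mean of the red blood cell list ran from 9.41 to 10.09 with a median of 9.79 in the high group and from 9.12 to 10.02 with a median of 9.50 in the low group, and that of the nerve list from 8.56 to 8.85 and from 8.46 to 8.74. Their part in the differences of other genes was not tested. The mean of the adipocyte list ran from 9.20 to 9.98 units in the high and from 9.11 to 10.22 in the low group, and that of the endothelial list from 9.53 to 10.13 and from 9.45 to 10.17. The haemoglobin genes Hba-a1 and Hba-a2 differed by 0.46 units each (adjusted p of 0.151 and 0.149). The myelin gene Mbp differed by 0.15 units (adjusted p of 0.126). Of 7 denervation and regeneration genes 0 were called, with 1 at an unadjusted p below 0.05, the embryonic myosin Myh3 (0.12 ± 0.04 units).

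Of the 68 genes called lower in the high group, 2 were in the lists, Phka1 and Ppp3ca. The 10 largest called lower differences ran from -0.50 to -0.30 units. Stxbp4, a syntaxin-binding protein of vesicle transport, had a median of 10.13 units in the high group and 10.67 in the low group, with ranges that overlapped, and fell by 0.50 units (SE 0.11, adjusted p of 0.0162). Mical2, an enzyme that oxidises actin, was at 10.70, 10.97 and 11.21 in the high and 11.09, 11.51 and 11.80 in the low group. It fell by 0.49 units (SE 0.07, adjusted p of 4.68e-05). Mettl21c, a protein lysine methyltransferase of muscle, fell by 0.42 units (adjusted p of 0.0348), and Dhdh by 0.41 (0.00918). A630089N07Rik, Rasd2, Pld5, Tspan8, Tmem184c and C17orf39 fell by 0.40 to 0.30. Among the higher genes, Lgi1, a secreted protein known from neurons, was higher by 0.85 ± 0.19 units and Lrrc52, a channel-associated protein, by 0.76 ± 0.19 (adjusted p of 0.0226 and 0.047). Lgi1 differed by 0.13 units within batch 1 and 1.25 within batch 2, and Lrrc52 by 0.54 and 0.88. Rasd2 differed by -0.09 and -0.52 in the same order. Lrrc52, Rasd2, Pld5, C17orf39, Mettl21c and Tspan8 were called in 9, 9, 10, 8, 15 and 18 of 28 fits that left out 1 array.

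**Figure D4:**
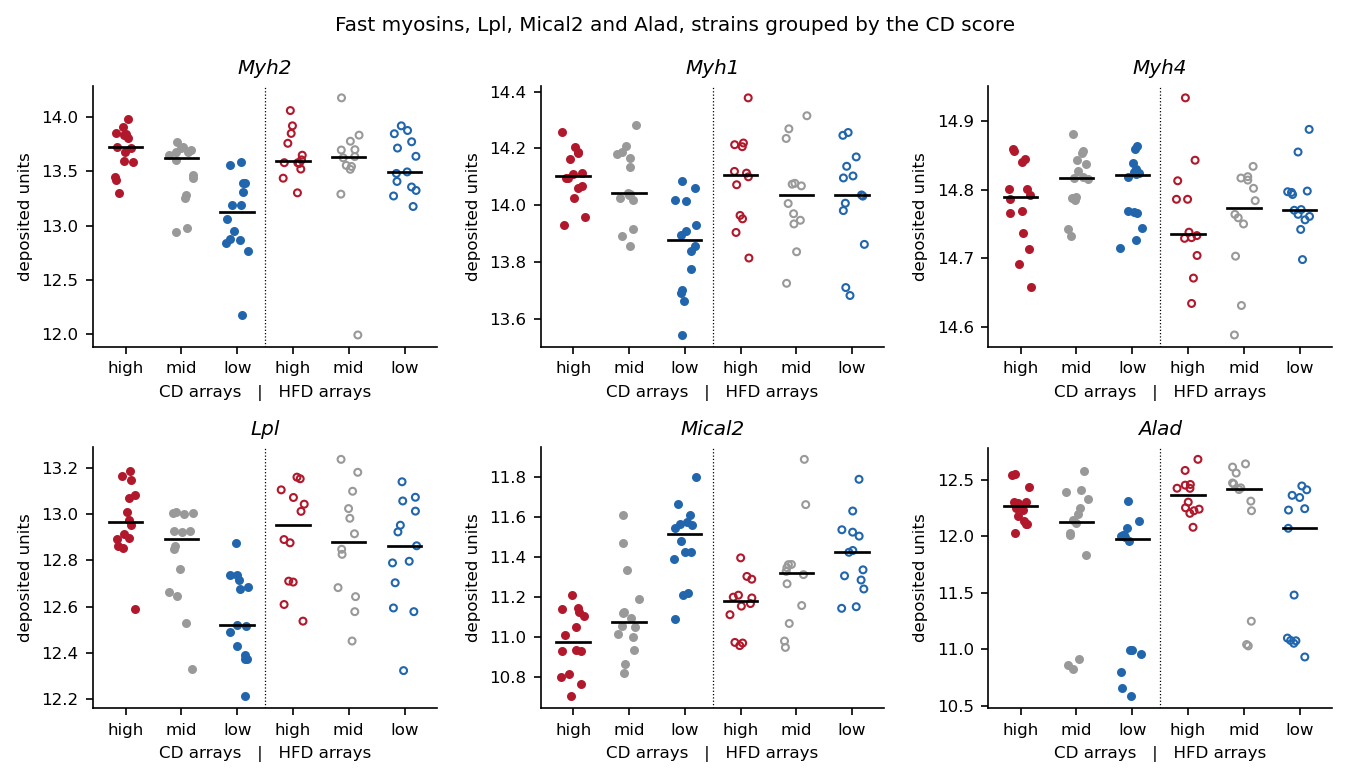
Values in deposited units of the fast myosins Myh2, Myh1 and Myh4 and of Lpl, Mical2 and Alad (the last chosen after its values were seen), each point 1 array, with strains grouped by the CD score on CD (filled) and HFD (open) arrays and bars at the medians. Myh2 and Lpl are higher and Mical2 is lower in the high CD group, and Alad falls into separate levels that are also seen on HFD.

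The strains were then read on HFD, on arrays from other animals that had no part in choosing them. Of the 14 high strains 12 had an HFD array, and of the 14 low strains 13. The 12 had 7 arrays of batch 1 and 5 of batch 2, and the 13 had 5 and 8. Their slow troponin score on HFD was 9.18 ± 0.70 units (SD, n = 12) for the CD-high and 8.90 ± 0.56 (SD, n = 13) for the CD-low strains. The difference of 0.27 units was within the spread between strains (two-sided permutation test, p = 0.294), and it was 0.27 within batch 1 and 0.27 within batch 2. The CD-high strains ran from 8.26 to 10.27 and the CD-low strains from 8.00 to 9.86, so the ranges overlapped almost wholly. By their HFD score, 5 of the 12 CD-high strains were in the HFD high group, 3 in the middle and 4 in the low group, and of the 13 CD-low strains 4 were high, 6 middle and 3 low. BXD100 and BXD84, the CD-high strains farthest from the median that had both arrays, stood at 8.55 and 8.54 on HFD.

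Across the genome, 0 of 22335 genes (0%) were called by limma on these HFD arrays, with a smallest adjusted p of 0.135. At an unadjusted p below 0.05 there were 1139, or 5.1%. The slow contractile list had 0 calls and a median difference of 0.19 units, and 11 of 12 differences were positive, beside 47.7% of all genes. Myh7 ran from 8.39 to 10.92 with a median of 9.59 in the CD-high strains and from 8.49 to 10.61 with a median of 9.03 in the CD-low strains. Its difference of 0.17 units had a 95% interval of -0.39 to 0.73, which lies below the 1.94 units found on CD. Myl2 differed by 0.30 units (interval -0.25 to 0.85), Myl3 by 0.40 (-0.43 to 1.22) and Atp2a2 by 0.31 (-0.07 to 0.69). The score genes Tnni1, Tnnt1 and Tnnc1 differed by 0.29, 0.26 and 0.27 units, with unadjusted limma p of 0.282, 0.181 and 0.321. Because the CD values chose the strains, a move toward the middle on other arrays is built into the comparison, and its size was not tested.

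Most genes called on CD had the same direction on HFD. Of the 127 genes called higher on CD, 121 were also higher on the HFD arrays of the same strains, and of the 68 called lower, 65 were also lower. Together that is 95.4%, beside 57.3% of all 22332 genes. The called genes move with one another and the diets share strains, so they are not separate observations, and no test was made of this share. At an unadjusted p below 0.05 on HFD there were 47 of the 195, which is 24.1% beside 5.1% of all genes, and all 47 had the CD direction. The median difference of the genes called higher was 0.36 units on CD and 0.12 on HFD. That of the genes called lower was -0.21 and -0.08. Because the genes were called on the CD arrays, smaller differences on other arrays are built in, and their size was not tested.

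Of the 20 named genes with the largest called differences on CD, 7 were below 0.05 unadjusted on HFD, and none was called. Chad, at 0.53 units on HFD (unadjusted p of 0.0186), Ldhb at 0.24 (0.0346), Stxbp4 at -0.33 (0.0354), Mettl21c at -0.33 (0.0407) and Tmem184c at -0.14 (0.0466) were among them. The lowest p among the named lower genes belonged to A630089N07Rik, an uncharacterised transcript, with -0.38 units on HFD beside -0.40 on CD (unadjusted p of 5.56e-05, adjusted 0.31), and to Mical2, with -0.27 beside -0.49 (0.000312, adjusted 0.58). Phka1 differed by -0.15 units (0.00438) and Comp by 0.25 (0.00464). Of the 17 fatty acid genes 16 differences were positive, beside 47.7% of all genes, with a median of 0.09 units. Acsl1, Cpt2, Slc25a20 and Cpt1b were below 0.05 unadjusted with 0.15, 0.16, 0.18 and 0.09 units, beside 5.1% of all genes below it. On the same arrays 9 of 10 endothelial differences were positive and 4 were below 0.05 unadjusted. Of 8 nerve genes 6 were positive and 3 below 0.05, and of 10 adipocyte genes 9 and 0. Of 6 red blood cell genes 1 was positive and 0 below 0.05, and of 8 immune genes 3 and 0. Myh2 differed by 0.11 units, with an interval of -0.07 to 0.29.

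**Figure D5:**
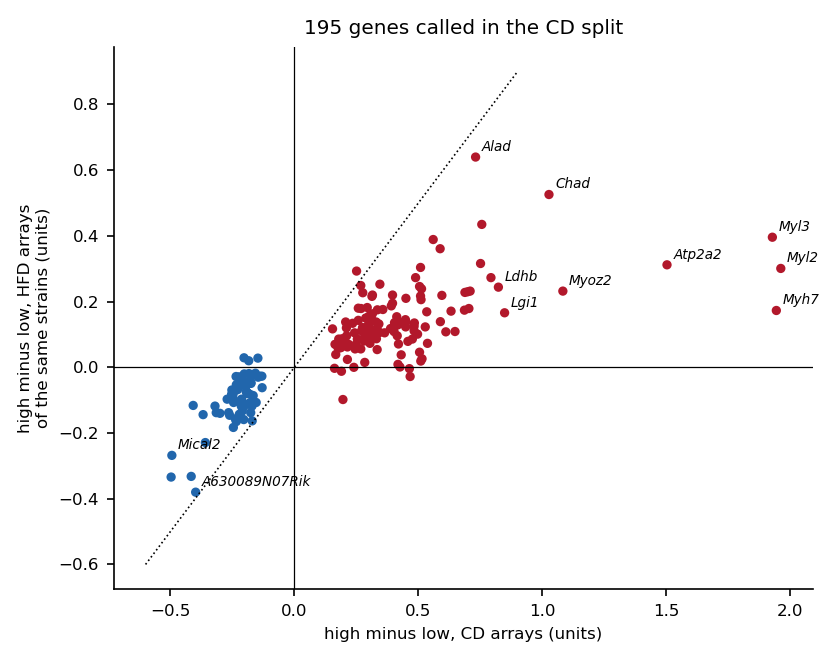
Differences between CD-high and CD-low strains in deposited units for the 195 genes called on CD, with the CD difference on the horizontal and the HFD difference of the same strains on the vertical axis, and a dotted line where both are equal. Of the red points (higher on CD) 121 lie above 0 and of the blue points (lower on CD) 65 lie below 0, and the slow myosin genes lie far to the right of the line.

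Over all 37 strains with both arrays, no relation between the CD and HFD scores was detected. Pearson's r was 0.19 (two-sided permutation p = 0.247) and Spearman's rho 0.17 (p = 0.326). Without BXD84 and BXD100, the 2 strains farthest from the median CD score, r was 0.31 (permutation p = 0.0741). Within batches r was 0.07 for 12 strains with both arrays in batch 1 (permutation p = 0.821), 0.50 for 17 in batch 2 (permutation p = 0.043) and 0.17 for 8 strains with arrays of different batches (permutation p = 0.703). With the score, 16 such relations were computed, including each score gene and each slow contractile gene, and after Benjamini-Hochberg adjustment over these 16 the score had p = 0.44. The r of the 15 genes ran from -0.03 for Ankrd2 to 0.64 for Tpm3.

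Tpm3, read by its brightest probeset, had the highest r of the slow genes, chosen here for that value. Another Tpm3 probeset was called higher in the HFD split when all named probesets were tested. The r between diets of that probeset was not computed. Its r of 0.64 had a permutation p of 5e-05 (0.0008 adjusted over the 16 relations), with rho of 0.64 (permutation p = 7e-05). Without the 2 strains farthest from its median on CD it was 0.58 (permutation p = 0.00031), and it was 0.63 within batch 1, 0.72 within batch 2 and 0.45 over strains with arrays of different batches. The next highest was Pln at 0.32 (permutation p = 0.0531), while Myh7 and Myl2 had r of 0.09 and 0.10. As a description across genes, the median r between diets was 0.16 over all 22335 named genes and 0.34 over the 195 called genes. It was 0.18 over 12 slow contractile, 0.39 over 17 fatty acid, 0.42 over 21 oxidative and 0.31 over 25 regulator genes. Among lists of other cells, red blood cell, adipocyte and immune genes had 0.38, 0.35 and 0.32. Fibroblast and tendon, endothelial and nerve genes had 0.24, 0.17 and 0.12. Genes share strains and batches and are not independent replicates.

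When the HFD arrays were split by their own score, 4 slow contractile genes were called. The score had medians of 9.78 in the 12 high and 8.39 in the 12 low arrays, with the limits at 9.22 (BXD81, inside) against 9.18 (BXD97, outside) and 8.55 (BXD100, inside) against 8.61 (BXD70, outside). In batches 1 and 2 there were 6 and 6 high arrays and 8 and 4 low arrays. The calls were 4 of 22332 genes, 0.0179%, with 1202 (5.38%) at an unadjusted p below 0.05. They were Myl3, Myh7, Myl2 and Atp2a2, higher by 1.96 ± 0.30, 1.69 ± 0.10, 1.67 ± 0.15 and 1.10 ± 0.09 units (SE). When all named probesets were tested in this split, a Myh7 probeset was called and another was not. By its brightest probeset Myh7 ran from 9.68 to 10.92 with a median of 10.04 in the high arrays. In the low arrays it ran from 7.95 to 8.91 with a median of 8.49, with no overlap. Myl2 and Atp2a2 did not overlap either, whereas Myl3 ran from 9.28 to 12.15 and from 7.48 to 10.79. All 12 slow contractile differences were positive, with a median of 0.76 units beside 0.68 on CD. Pln missed the threshold at 0.41 units (adjusted p of 0.0775), as did Csrp3 at 0.72 (0.721) and Myoz2 at 0.80 (0.318).

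No metabolic gene was called between these HFD groups. The fatty acid list had 0 calls and a median of 0.10 units, and the oxidative list 0 calls and 0.05 units. Fabp3 differed by 0.20 units (adjusted p of 0.918), Lpl by 0.10 (0.941) and Ldhb by 0.46 (0.721). Whether these differences are smaller on HFD than on CD was not tested. Myh2 differed by 0.41 units (adjusted p of 0.82). The differences of adipocyte genes were negative in 9 of 10 cases, with a median of -0.27 units and 0 calls (2 at an unadjusted p below 0.05), where on CD the median was 0.02. Adipoq, the adipocyte hormone adiponectin, differed by -0.545 and Lep, which encodes leptin, by -0.47 units (adjusted p of 0.92 for each). Of the 127 genes called higher on CD 121 were also higher here, and of the 68 lower 64 were also lower, 94.9% together beside 59.1% of all genes.

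In the other direction, the strains chosen by their HFD score showed no difference beyond their spread on CD. Their CD scores were 9.26 ± 0.75 and 9.24 ± 0.85 units (SD, n = 12 each), a difference of 0.01 (two-sided permutation test, p = 0.974). The HFD-high strains had 4 CD arrays of batch 1 and 8 of batch 2, the HFD-low strains 7 and 5. The difference was 0.02 within batch 1 and -0.135 within batch 2. On these CD arrays 0 of 22335 genes (0%) were called by limma, with 1279 (5.73%) at an unadjusted p below 0.05. The slow contractile list had 5 of 12 positive differences and a median of -0.05 units.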

How the data were processed

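Quadriceps RNA pools were hybridised to Affymetrix mouse gene arrays, and the submitters' notes name Affymetrix Expression Console. The authors deposited 1 table of score values for 35556 probesets on 79 arrays, each array rescaled to a mean of 8.0 and an SD of 2.0. The log base, the background method and the genome build are not given in the sources used here. Array medians lay between 7.78 and 7.92 units, and the number of arrays limits the precision. The planned models assumed log values and were run on these scores unchanged. All value columns were used, and the column for BXD92 on chow was matched to title BXD92a. Replicates of a group were strains, with 1 pooled array each, and the strain in the labels pairs arrays across diets.

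A gene was its brightest probeset, by the average of all arrays (22335 named genes, of which 2013 had several probesets). CD arrays were ranked by the mean of Tnni1, Tnnt1 and Tnnc1, taking the 14 highest and 14 lowest, and HFD arrays likewise with 12 and 12. limma 3.58.1 (lmFit, eBayes; R 4.3.3) compared groups with batch as a covariate, calling genes at a Benjamini-Hochberg adjusted p below 0.05 over all named genes, without the score genes where they set the groups. Intervals are 95%. Permutation tests drew 100000 times, two-sided, with 1e-05 the smallest p possible (Python 3.11.15, numpy 2.4.6, pandas 2.3.3, matplotlib 3.10.9). The models were tested on simulated data. Genes named are the members of the lists, the 10 largest calls in each direction on CD, and tissue checks; others are said to be chosen after their values were seen. No gene was called on the HFD arrays of the CD groups, so that part of the rule named none. Bdh1, Chad, Lgi1 and Lrrc52 came by the 10 largest calls. The genes Alad and Hdhd3 were chosen after their values were seen. The score genes and the lists were chosen with earlier results of these data known. Motifs were sought on both strands of RefSeq windows, where E-boxes and MCAT motifs may overlap. The alternatives were each batch alone, no batch term, fewer strains, other group sizes, single score genes, another normalization or centring, removal of genes below the median brightness, all probesets, trend and robust options, the methods' t-test, the score as a number, both diets with strain as a block, and each array left out.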

Additional observations from a re-analysis of the deposited data

How the results depend on the processing

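Of the 47 named genes called in the CD split none changed direction under the alternatives run, with 4 (Esrrb, Lgi1, Myh6 and Pln) not measured once dim genes were removed, but its count of 195 calls moved. It was 4 in batch 1 alone (5 against 5 arrays) and 33 in batch 2 alone (9 against 9), 121 without the parental strains, 121 with 10 against 10, 101 with 21 against 21 and 300 (155 higher, 145 lower) when the dimmer genes were removed, which tests fewer genes. Leaving out 1 array gave 112 to 269, with 112 without BXD50, 125 without BXD87 and 128 without BXD51, and 107 of the 195 genes were called in all 28 such fits. Without BXD63 it was 246. With strain as a replicate block over both diets it was 206 (paired arrays correlated at 0.17), within 1.5 times as for the alternatives not listed here. On the HFD arrays of the CD groups 0 became 1 in batch 1 alone (CCL_complex, lower) and 1 with groups set by Tnni1 (Ybx2, higher), and 0 to 2 with 1 array left out, 2 without BXD83 or BXD81 and 1 without BXD98. The HFD split had 4 calls, 2 in batch 2 alone (Myh7 and Myl2), 11 with the score as a number and 4 to 7 with 1 array left out, 7 without BXD79. CD arrays of the HFD groups gave 0 calls, 1 with 10 against 10 (Acer3, lower), and 0 to 1 with 1 array left out, 1 without BXD45. These genes were named after their values were seen. The r between diets was 0.50 over strains with both arrays in batch 2 (permutation p = 0.043), past 0.05, and 0.07 to 0.31 otherwise. The cause of these moves was not tested, though each batch alone holds fewer arrays. Over the 28 fits that left out 1 array, 13 of the 47 lost the call at least once, Pln, Comp, Mettl21c, Lrrc52, Rasd2, Pld5, C17orf39, Tspan8, Cpt1b, Cpt2, Ankrd2, Casq2 and Uqcrc1.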

Other observations

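Alad, the delta-aminolevulinate dehydratase of haem synthesis, was called higher in the CD-high strains and was chosen after its values were seen. On CD the high group ran from 12.03 to 12.55 units and the low group from 10.58 to 12.31 with a median of 11.97, so the groups differed by 0.73 ± 0.16 (SE, adjusted p of 0.0158 from limma). Its values fell into separate levels. The widest gap over all arrays lay between 11.48 and 11.83, with 9 CD and 9 HFD arrays below it, and these were the same 9 strains on both diets. Of the 9, 6 were CD-low strains, 3 were in the middle and 0 were CD-high, and C57BL/6J was among them at 10.995 while DBA/2J was at 12.11. On the HFD arrays of the same strains Alad differed by 0.64 units (unadjusted p of 0.000825). Hdhd3, the gene next to Alad in the RefSeq order, differed by 0.25 units on CD (adjusted p of 0.0444) and by 0.29 on HFD (unadjusted p of 0.000392). Between the HFD groups set by their own score, Alad differed by 0.02 units (adjusted p of 0.993).

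The smallest p on the HFD arrays of the CD groups belonged to genes that were not among the 195, Pisd-ps2 with 0.33 and Ybx2 with 0.37 units (adjusted p of 0.135 for each).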
